A study of Mus musculus with 6 samples.

Results

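Cytosolic and mitochondrial molecular chaperones were followed in mouse macrophages stimulated with lipopolysaccharide, with and without low-intensity ultrasound. The set is a fixed list of 45 genes: the HSP70, HSP110, HSP90 and small heat shock proteins, the chaperonins of the cytosol (TRiC) and of mitochondria, J-domain proteins, the co-chaperones of HSP70 and HSP90, and the heat shock factors HSF1 and HSF2. The question put to these genes was whether ultrasound left a trace of a heat shock response in their RNA. All 45 were found by symbol among the 55335 genes of the table, and 42 of them passed the filter of a mean of at least 1 FPKM (fragment counts scaled by transcript length and library size) that left 11270 genes for testing. The 3 members below the filter were Hspa1a, Cryab and Dnaja4.

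Chaperones bind unfolded or partly folded proteins and let them fold, unfold or be degraded. HSP70 proteins work in cycles of ATP binding and hydrolysis that J-domain proteins start and nucleotide exchange factors end, and HSP90 takes over partly folded clients such as kinases and steroid receptors with the help of its own co-chaperones. On heating, HSF1 forms trimers and binds heat shock elements, which are alternating inverted repeats of the letters GAA in promoters, and the RNA of inducible HSP70, HSP110, HSP40 and small heat shock protein genes rises within minutes to hours. In macrophages many of these proteins are made at all times, and lipopolysaccharide signalling itself draws on HSP90 clients.

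The cells were RAW 264.7, an established mouse macrophage line, labelled wild type. One group of 3 libraries came from cells given 200 ng/ml lipopolysaccharide (LPS) for 8 h. The other group of 3 came from cells given the same LPS and, during the stimulation, 10 min of ultrasound. Whether the cells given LPS alone were sham-treated is not stated, so the sound itself and the handling that went with it cannot be told apart. The field had a frequency of 1 MHz and an intensity of 50 mW/cm2, and was delivered in 200 µs pulses repeated at 1 kHz (20% duty cycle). Every library therefore carried LPS, and the sources used here give neither the time between sonication and harvest nor a temperature. Whether the 3 libraries of each group were separate cultures is not said in the labels. The p-values therefore set the difference between group means only against the spread among these libraries, and that spread may be technical.

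The table holds FPKM and no counts, so the sequencing depth behind each value is unknown. FPKM sums were 278871 to 292200 per library. All 11 macrophage markers averaged at least 1 FPKM, with summed levels of 2790 to 3038 FPKM in the LPS libraries and 2848 to 3112 FPKM in the ultrasound libraries, while none of 10 skeletal muscle, 6 fibroblast, 5 endothelial and 4 T cell markers did. On the first principal component, which held 41.9% of the variance, LPS library 2 lay at -28.8 and the other LPS libraries at -1.73 and -2.03, against 0.957 to 17.7 for the ultrasound libraries. Beside the member counts, some of the gene groups and some of the heat-inducible genes, values without LPS library 2 are also given. Where no such value is given, it may still have changed.

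Heat shock elements were searched for in RefSeq promoter windows of the GRCm38.p6 build, each running from 250 bases before to 50 bases after a start site. Of the 45 members, 35 had a window. Those without one, which were not searched, were Cct4, Cryab, Dnajc2, Dnajc5, Hsf1, Hsp90aa1, Hsp90ab1, Hspa8, Hspa9 and St13. The strict motif was 3 alternating units, GAANNTTCNNGAA or TTCNNGAANNTTC, and the looser one was 2 units, GAANNTTC or TTCNNGAA, with both strands searched. The looser motif is contained in the strict one. The strict motif was present for 5 of 35 members (14.3%), Hspd1, Hspe1, Hsph1, Chordc1 and Dnajb6, and for 0.662% of all 27025 genes with a window. The looser one was present for 17 of 35 members (48.6%) and for 17.0% of all genes with a window. Counted by windows, of which a gene can have more than 1, the strict motif was in 7 of 48 windows of members (14.6%) and 0.603% of all 32851, and the looser one in 19 of 48 (39.6%) and 15.1%. The stretches below show what these matches look like in the strict group and, for contrast, in the inducible HSP70 genes, with the matched letters in capitals and the gene's strand read 5′ to 3′.
Hspd1, chr1:55088019-55088116, minus strand: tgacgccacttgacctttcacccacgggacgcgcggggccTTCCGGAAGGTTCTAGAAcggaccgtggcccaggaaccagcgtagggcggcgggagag
Chordc1, chr9:18292260-18292288, plus strand: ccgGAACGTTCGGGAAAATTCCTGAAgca
Hsph1, chr5:149636280-149636308, minus strand: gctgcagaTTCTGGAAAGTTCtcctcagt
Dnajb6, chr5:29735844-29735872, plus strand: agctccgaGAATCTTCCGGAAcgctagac
Hspa1a, chr17:34972213-34972300, minus strand: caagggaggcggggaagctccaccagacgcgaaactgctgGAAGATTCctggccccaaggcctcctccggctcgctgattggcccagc
The Hspd1 stretch lies between the start sites of Hspd1 and Hspe1, which are 216 bases apart on opposite strands, so one run of 18 matched bases serves both windows. In Chordc1 the matched run covers 23 bases and crosses the start site, from position -4 to position 19. Hspa1a has the looser match at positions -104 to -97, and the Hspb1, Hspa1b, Bag3, Dnaja1, Dnajb4 and Fkbp4 windows also hold 1 or more looser matches. The Hspa1b window on the same chromosome carries the same 88 letters at chr17:34959295-34959382, minus strand, and the whole windows of these HSP70 genes are 98.7% identical.

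No chaperone gene passed the test between LPS plus ultrasound and LPS. By limma with Benjamini-Hochberg adjustment over 11270 genes, 0 of 42 members had an adjusted p below 0.05, and 2 of all genes tested did (0.0177%). At an unadjusted p below 0.05 there were 9 members, 3 with higher values after ultrasound and 6 with lower values, against 6.18% of all genes tested higher and 9.16% lower (15.3% in either direction). Some other settings gave fewer such members, while the count over all genes, 1729 in the fit reported, stayed between 1691 and 1774. There were 4 with median-ratio scaling, among 1774 of all genes tested, and 4 with plain moderation, among 1691. Quantile normalization gave 5, among 1729, and equal FPKM sums 7, among 1735. The fit with the replicate number as a block gave 10, among 3343 of all genes tested. Library weights gave 9, among 2945. Of the 42 tested members 21 had a higher mean log value after ultrasound and 21 a lower one, and the median difference on the log2(FPKM + 1) scale was -0.0013 against -0.017 for all genes tested. This balance moved with the libraries and the scaling: 14 of 42 members were higher without LPS library 2, 17 without both libraries numbered 2 and 16 with equal FPKM sums. Among all genes at an unadjusted p below 0.05, 40.3% were higher, and this share was 30.2% with equal FPKM sums, 48.5% with median-ratio scaling and 48.6% with quantile normalization. Differences ran from -0.35 for Stip1 to 0.25 for Chordc1. In bulk RNA such as this, fewer cells of a type and less RNA per cell cannot be told apart.

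In 11 members the 3 ultrasound libraries lay entirely to one side of the 3 LPS libraries (23.2% of all genes tested did so), 4 of them above, Bag1, Chordc1, Cdc37 and Cct3, against 9.8% of all genes, and 7 below, Stip1, Hspd1, Hspa4l, Fkbp4, Tcp1, Cct2 and Cct5, against 13.4%. With the replicate number as a block, 0 members and 13 genes (0.115%) passed. With library weights estimated from the data, 1 member passed, Stip1, lower after ultrasound, with an adjusted p of 0.046, among 152 lower genes (1.35%). That fit gave ultrasound library 1 a weight of 7.7 and the other libraries 0.362 to 1.18. The count of 9 members at an unadjusted p below 0.05 stood among 1729 of all genes tested. It was 6 without LPS library 1 or 3, among 1866 and 1579 of all genes. Without LPS library 2 or ultrasound library 1 or 2 it was 3, among 1161, 1018 and 1771. Without ultrasound library 3 it was 4, among 1220. The members' median was -0.047 without LPS library 2.

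**Figure D1:**
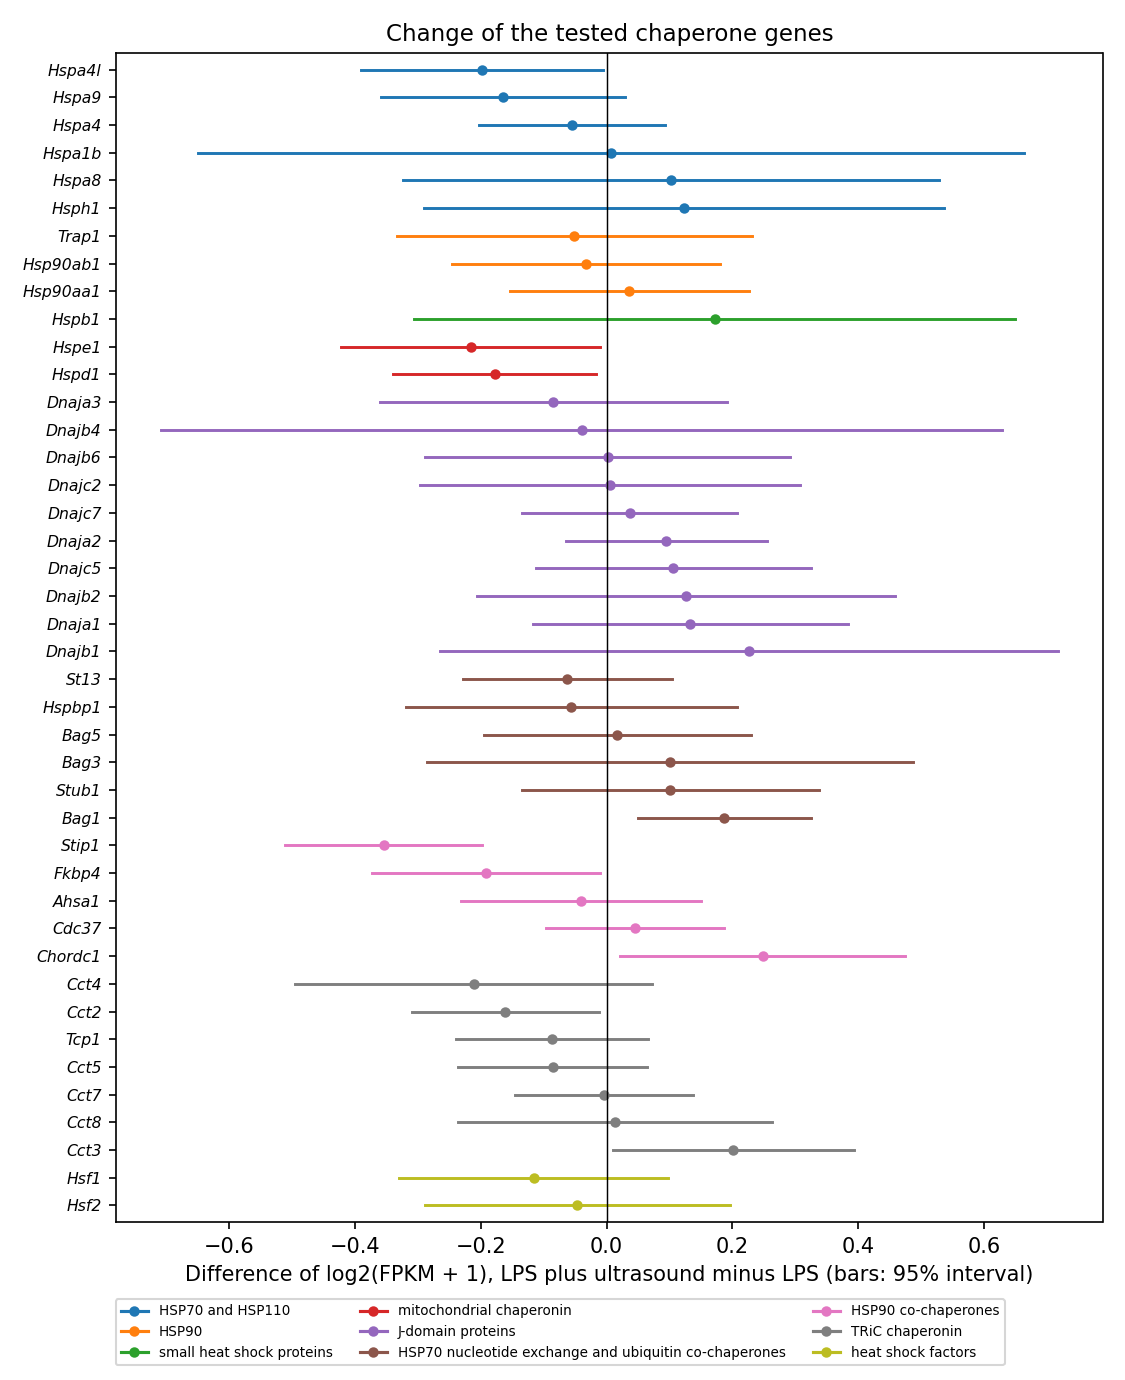
Difference between LPS plus ultrasound and LPS on the log2(FPKM + 1) scale (x axis) for each of the 42 tested chaperone genes (y axis), coloured by role. Points are fitted differences from 3 libraries a group and bars their 95% intervals before any adjustment, with values from -0.35 for Stip1 to 0.25 for Chordc1 and the widest bars for Hspa1b, Dnajb4, Dnajb1 and Hspb1.

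The inducible HSP70 genes, the usual first readout of heat shock, were low in every library. Hspa1b was at 1.26, 0.983 and 3.24 FPKM in the LPS libraries and at 1.85, 1.3 and 1.95 FPKM in the ultrasound libraries. The ultrasound values lay inside the LPS range, whose upper end was LPS library 3. The difference was 0.01 ± 0.28 (SE) on the log2(FPKM + 1) scale, with a 95% interval of 0.638-fold to 1.58-fold on that scale, which understates changes of genes this low. Hspa1a, below the filter, was at 0.326, 0.207 and 0.639 FPKM with LPS and at 0.332, 0.279 and 0.371 FPKM with ultrasound, again with LPS library 3 highest and LPS library 2 lowest. The longest coding transcripts of these genes are 99.2% identical over 2201 aligned bases, so reads may be divided between them. Summed, they gave 2.22 ± 1.45 FPKM with LPS and 2.03 ± 0.397 FPKM with ultrasound (SD, n = 3 each).

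Hspa8, the HSP70 that cells make at all times and that heat raises further, also strips clathrin from vesicles. Its level exceeded that of Hspa1a plus Hspa1b by 92.1-fold to 199-fold in FPKM, and the order of the libraries in that ratio did not separate the groups. Hspa8 was at 234, 222 and 357 FPKM in the LPS libraries and at 263, 314 and 278 FPKM in the ultrasound libraries, with a difference of 0.10 ± 0.18 (log2 scale, adjusted p = 0.80). LPS library 3 was above all ultrasound libraries and the other LPS libraries were below them. Hsph1, an HSP110 protein that exchanges nucleotide on HSP70, was at 24.3, 18.9 and 30.7 FPKM with LPS and at 27.7, 22.8 and 29.2 FPKM with ultrasound. Its difference was 0.12 ± 0.18 (adjusted p = 0.75), and the groups overlapped over most of their range.

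The remaining HSP70 and HSP110 members had lower mean values after ultrasound. Without LPS library 2, 0 of the 6 tested HSP70 and HSP110 members were higher and 6 lower, against 3 and 3 in the fit reported. Hspa4l, another HSP110 protein, was at 11.4, 12.3 and 10.5 FPKM with LPS and at 9.93, 9.69 and 9.74 FPKM with ultrasound. All ultrasound libraries were below all LPS libraries, with a difference of -0.20 ± 0.08 (adjusted p = 0.32). Hspa9, the mitochondrial HSP70 that pulls imported proteins into the matrix, was at 147, 152 and 132 FPKM with LPS and at 136, 121 and 127 FPKM with ultrasound. The difference was -0.16 ± 0.08 (adjusted p = 0.38), and LPS library 3 fell among the ultrasound values. Hspa4 averaged 65.5 ± 1.38 and 63 ± 2.11 FPKM (SD, n = 3 each).

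HSP90 genes overlapped between the groups throughout. Of the 3, 1 had a higher and 2 a lower mean value after ultrasound, or 2 and 1 without LPS library 2. Hsp90ab1, the constitutive cytosolic form and the highest of all members, was at 716, 626 and 716 FPKM with LPS and at 714, 615 and 683 FPKM with ultrasound. In both groups library 2 was the lowest. Hsp90aa1, the heat-inducible form, was at 174, 186 and 174 FPKM with LPS and at 174, 201 and 174 FPKM with ultrasound, with library 2 the highest in both groups. Differences were -0.03 ± 0.09 for Hsp90ab1 (adjusted p = 0.88) and 0.04 ± 0.08 for Hsp90aa1 (adjusted p = 0.85), and the 95% interval for Hsp90aa1 ran from 0.899-fold to 1.17-fold. The ratio of the constitutive to the inducible form in FPKM was 3.37 to 4.11 in the LPS libraries and 3.06 to 4.1 in the ultrasound libraries. Trap1, the mitochondrial HSP90, averaged 24.5 ± 2.33 and 23.7 ± 3.51 FPKM.

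Small heat shock proteins, which hold unfolded proteins without ATP, were at low levels. Hspb1 was at 1.15, 0.482 and 1.42 FPKM with LPS and at 1.36, 0.888 and 1.48 FPKM with ultrasound. The groups overlapped, and library 2 was the lowest in each. Each ultrasound library was above its same-numbered LPS library, and the difference was 0.17 ± 0.20 (adjusted p = 0.70, or 0.29 when blocked). Cryab, the lens and muscle crystallin, stayed at or below 0.0652 FPKM in every library and was listed at 0 in LPS libraries 1 and 2.

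Among J-domain proteins, the co-chaperones that start the HSP70 cycle, 8 of 10 tested members had higher mean values after ultrasound (6 with equal FPKM sums and 7 with quantile normalization) and none passed at an unadjusted p below 0.05. Without LPS library 2 only 5 of the 10 were higher, and the group's median difference went from 0.07 to 0.01. Dnajb1, the heat-inducible HSP40, was at 18.3, 14.4 and 25.6 FPKM with LPS and at 21.8, 19 and 26.9 FPKM with ultrasound. Each ultrasound library was above the LPS library of the same number, an order that 9 of the 42 members showed, against 24.3% of all genes tested. The opposite order, every ultrasound library lower, was found in 14 of the 42, against 30.9%. The LPS libraries of Dnajb1 spread 1.77-fold, and the difference was 0.23 ± 0.21 on the log2 scale (adjusted p = 0.62, or 0.13 when blocked on the replicate number). The interval for Dnajb1, 0.833-fold to 1.64-fold, reached the highest upper bound of the 42 members. Dnaja1, a partner of HSC70, was at 20.3, 17.1 and 22.8 FPKM with LPS and within 21.7 to 22.4 FPKM in all 3 ultrasound libraries, with a difference of 0.13 ± 0.11 (adjusted p = 0.56).

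Dnajb4 was at 4.64, 4.05 and 8.36 FPKM with LPS and at 4.35, 7.81 and 4.21 FPKM with ultrasound. LPS library 3 and ultrasound library 2 stood well above the others of their groups, and the difference was -0.04 ± 0.28 (adjusted p = 0.96). Without LPS library 2 it was -0.21. Dnaja2, the most abundant J-domain member, was at 72.2, 67.6 and 64.9 FPKM with LPS and at 73, 71.3 and 74.3 FPKM with ultrasound. Its difference was 0.09 ± 0.07 (adjusted p = 0.52, and 0.06 to 0.14 with 1 library left out), and LPS library 1 lay among the ultrasound values. Group means of the others were 14.6 and 13.8 FPKM for mitochondrial Dnaja3, 14.5 and 15.7 FPKM for Dnajb2, 27 and 27.1 FPKM for Dnajb6, 20 and 20.2 FPKM for ribosome-bound Dnajc2, 9.32 and 10.1 FPKM for the vesicle protein Dnajc5, and 16.2 and 16.6 FPKM for Dnajc7, which links HSP70 to HSP90. Dnaja4 did not exceed 0.0288 FPKM in any library.

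In the co-chaperones of HSP70 that exchange nucleotide or pass clients to degradation, Bag1 stood apart by how tightly its libraries grouped. Of the 6 members of this group 4 had higher and 2 lower mean values after ultrasound, or 3 and 3 without LPS library 2. Bag1, which links HSP70 to the proteasome, was at 65.1, 66.3 and 66.1 FPKM with LPS and at 75.6, 75.2 and 74.6 FPKM with ultrasound. The groups were far apart relative to their own spread. The difference was 0.19 ± 0.06 (95% interval 1.04-fold to 1.25-fold, adjusted p = 0.24, or 0.085 when blocked on the replicate number). Bag3, a heat-inducible gene that directs clients to selective autophagy, was at 46.3, 36.6 and 58.7 FPKM with LPS and at 48.4, 46.4 and 54.9 FPKM with ultrasound. The LPS libraries of Bag3 enclosed all ultrasound libraries, and the difference was 0.10 ± 0.16 (adjusted p = 0.79). Group means were 14.6 and 14.8 FPKM for Bag5, 26.4 and 25.2 FPKM for Hspbp1, 30.2 and 28.8 FPKM for St13, the HSP70-interacting protein HIP, and 21.5 and 23.1 FPKM for Stub1, the ubiquitin ligase CHIP.

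HSP90 co-chaperones held both the lowest and the highest difference of the set. Stip1, the adaptor known as HOP that hands clients from HSP70 to HSP90, was at 102, 110.2 and 107 FPKM with LPS and at 86.2, 83.6 and 79.9 FPKM with ultrasound. Every ultrasound library was below every LPS library. The difference was -0.35 ± 0.07 (95% interval 0.702-fold to 0.872-fold, adjusted p = 0.15), the smallest p of the 42 members. Blocking on the replicate number gave Stip1 an adjusted p of 0.063. Chordc1, an HSP90 partner and known heat-inducible gene, was at 9.56, 7.92 and 9.01 FPKM with LPS and at 11.2, 11 and 9.81 FPKM with ultrasound. Again no libraries overlapped, with ultrasound higher by 0.25 ± 0.10 (adjusted p = 0.30), or by 0.18 without LPS library 2.

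Fkbp4, the immunophilin of steroid receptor complexes, was at 40.5, 46.1 and 42.9 FPKM with LPS and at 39.6, 36 and 37.2 FPKM with ultrasound, a difference of -0.19 ± 0.08 (adjusted p = 0.31). Its nearest libraries, LPS library 1 and ultrasound library 1, differed by under 1 FPKM. Ahsa1, which speeds the ATPase of HSP90, was at 21.7, 24.3 and 23.6 FPKM with LPS and at 21.4, 24.2 and 21.9 FPKM with ultrasound, and its difference was -0.04 ± 0.08 (adjusted p = 0.83, and -0.0911 to -0.0075 with 1 library left out). Cdc37, which brings kinases to HSP90, averaged 53 ± 1.05 and 54.7 ± 0.75 FPKM. Among 15 further HSP90 co-chaperones 11 had lower and 4 higher mean values after ultrasound, or 12 and 3 without LPS library 2. Groups did not overlap for 7 of the 15 (46.7%, against 23.2% of all genes tested). All 7 lay below (13.4% of all genes). Of these genes 0 passed the adjusted threshold. Their smallest p-values were those of Tomm34, at 18.7 ± 1.2 and 15.6 ± 0.169 FPKM (adjusted p = 0.23), and of the stress-responsive immunophilin Fkbp5, at 8 ± 0.83 and 6.26 ± 0.843 FPKM (adjusted p = 0.29).

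**Figure D2:**
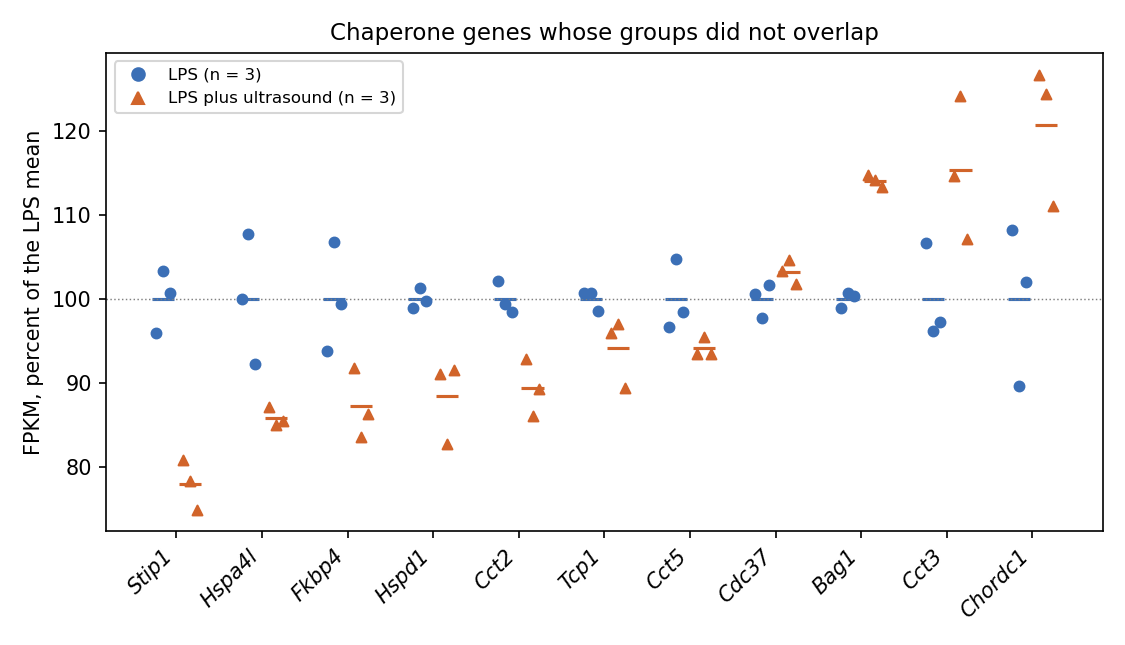
FPKM of the 11 chaperone genes whose 3 LPS libraries (circles) and 3 LPS plus ultrasound libraries (triangles) did not overlap, as percent of each gene's LPS mean (y axis, not starting at 0), with group means as short lines. Bag1 and Stip1 show the tightest groups relative to their gap, while the groups of Cdc37 and Cct3 nearly touch.

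All 5 mitochondrial members, Hspd1, Hspe1, Hspa9, Trap1 and Dnaja3, had lower mean values after ultrasound, with a median difference of -0.16, and none passed the adjusted threshold. All 5 stayed lower under each of the 4 other scalings tried, and 4 of 5 were lower without LPS library 2 or without ultrasound library 1 or 3. Of all genes tested, 46.1% had higher values after ultrasound. Hspd1, the ring chaperonin HSP60, was at 299, 306 and 301 FPKM with LPS and at 275, 250.02 and 277 FPKM with ultrasound. The LPS libraries agreed to within 1.02-fold and all ultrasound libraries were lower, with a difference of -0.18 ± 0.07 (adjusted p = 0.29). Hspe1, its lid HSP10, was at 92.8, 109.9 and 106 FPKM with LPS and at 93.8, 83.5 and 87.8 FPKM with ultrasound, a difference of -0.22 ± 0.09 (adjusted p = 0.31). Here LPS library 1 lay among the ultrasound values. The ratio of Hspd1 to Hspe1, genes that share the promoter stretch printed above, was 2.95 ± 0.239 with LPS and 3.03 ± 0.113 with ultrasound.

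Of 12 genes of mitochondrial protein quality control outside the set, 11 had lower mean values after ultrasound (9 to 11 over the scalings tried, and 9 without LPS library 2), with a median of -0.08 and 0 past the adjusted threshold. Hscb, a J-domain protein of iron-sulphur cluster transfer, was at 18.5 ± 1.77 and 14.9 ± 0.584 FPKM (adjusted p = 0.23). The matrix protease Lonp1 was at 58.6 ± 7.59 and 46.3 ± 4.78 FPKM (adjusted p = 0.27).

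TRiC, the cytosolic ring chaperonin that folds actin and tubulin, had 2 tested members with higher and 5 with lower mean values. Cct2, its most abundant member here, was at 186, 181 and 179.6 FPKM with LPS and at 169, 157 and 163 FPKM with ultrasound. All ultrasound libraries were lower, with a difference of -0.16 ± 0.06 (adjusted p = 0.30). Cct3 differed in the opposite direction, at 61.7, 55.6 and 56.2 FPKM with LPS and 66.4, 71.9 and 62 FPKM with ultrasound, a difference of 0.20 ± 0.08 (adjusted p = 0.31). Its nearest libraries, LPS library 1 and ultrasound library 3, differed by under 1 FPKM. Group means were 51.4 and 48.4 FPKM for Tcp1, 34.7 and 29.7 FPKM for Cct4, 76.4 and 71.9 FPKM for Cct5, 47.8 and 47.6 FPKM for Cct7, and 75.4 and 76.3 FPKM for Cct8. Cct6a, which was not on the list, was at 67.8 ± 2.34 and 69.5 ± 0.543 FPKM (adjusted p = 0.80). Prefoldin, which delivers clients to TRiC, had 5 of 6 subunits lower, led by Vbp1 at 21.8 ± 3.52 and 17.8 ± 2.33 FPKM (adjusted p = 0.38) and Pfdn4 at 6.07 ± 1.33 and 4.91 ± 0.471 FPKM (adjusted p = 0.44). Without LPS library 2 the difference went from -0.27 to -0.15 for Vbp1 and from -0.25 to -0.10 for Pfdn4.

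The heat shock factors themselves were expressed at low, even levels. Hsf1, which acts mainly through its protein state, was at 5.51, 4.97 and 5.19 FPKM with LPS and at 5.21, 4.43 and 4.61 FPKM with ultrasound, a difference of -0.12 ± 0.09 (adjusted p = 0.56). Hsf2 was at 6.36, 6.3 and 7.63 FPKM with LPS and at 6.55, 5.97 and 7.02 FPKM with ultrasound, a difference of -0.05 ± 0.10 (adjusted p = 0.85). Groups overlapped for each.

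The 18 members listed as heat-inducible were also read together. Of the 16 tested, 9 had higher and 7 lower mean values after ultrasound, with a median difference of 0.02. At an unadjusted p below 0.05 there were 6 (37.5% of the list, against 15.3% of all genes tested). Of these 1, Chordc1, was higher (6.18% of all genes) and 5, Stip1, Hspd1, Hspe1, Hspa4l and Fkbp4, were lower (9.16%). Groups did not overlap for 5 (23.2% of all genes), 1 above (9.8%) and 4 below (13.4%). The list was chosen with earlier results of these data known. Without LPS library 2, 4 of the 16 were higher and 12 lower and the median was -0.06, without LPS library 3 it was 0.23, and without both libraries numbered 2 it was -0.08. Outside this list, 7 of 10 further heat-inducible genes were tested, 5 higher and 2 lower (3 higher and 4 lower with equal FPKM sums or without LPS library 2), and 0 passed the adjusted threshold. The HSP70 co-chaperone Bag2 was at 16.6 ± 0.311 and 19.1 ± 2.77 FPKM (adjusted p = 0.44).

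**Figure D3:**
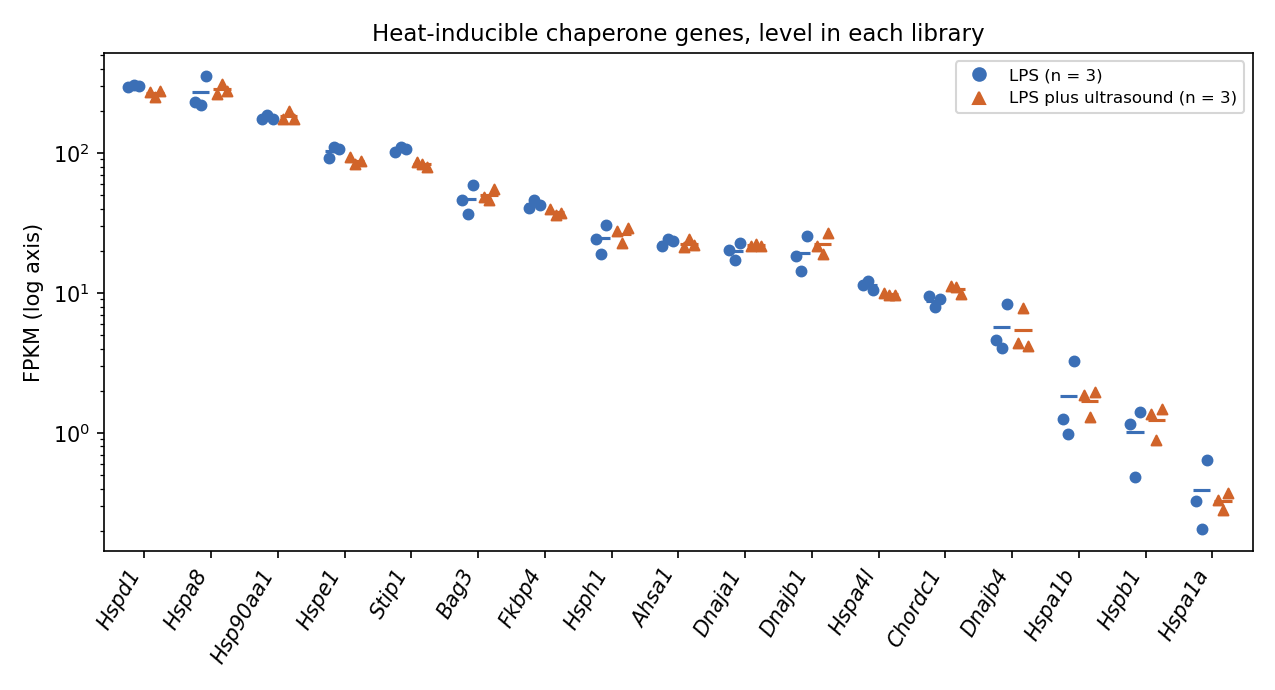
FPKM (log axis) of 17 of the 18 listed heat-inducible chaperone genes in each LPS library (circles) and each LPS plus ultrasound library (triangles), with group means as short lines. Cryab is left out because it is listed at 0 in some libraries. Circles and triangles overlap for most genes. Triangles lie below the circles for Hspd1, Stip1, Hspa4l and Fkbp4, and above them for Chordc1. The inducible genes Hspa1a and Hspa1b lie between 0.207 and 3.24 FPKM, far under Hspa8.

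The LPS libraries took a shared order in a part of the heat-inducible genes. In 8 of the 16, Hspa1b, Hspa8, Hsph1, Hspb1, Dnaja1, Dnajb1, Dnajb4 and Bag3, LPS library 3 was the highest and LPS library 2 the lowest of the LPS libraries, an order that held for 20.0% of all genes tested and for 5 of the 26 other members. This pattern was chosen after the values were seen. Relative to each gene's mean over the 6 libraries, the median of the 16 was -0.27 in LPS library 2 and 0.17 in LPS library 3 (log2 scale), and -0.11 to -0.01 in the ultrasound libraries. Medians of all genes tested ranged from -0.03 to 0.02. The highest LPS library was a median of 1.27 times the lowest over the 16, against 1.23 times over all genes tested. For 12 of the 16 (75.0%) and 34 of the 42 members (81.0%) the range of the LPS libraries exceeded the difference between group means, as it did for 78.1% of all genes tested.

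Without LPS library 2, differences turned negative for Hsph1 (-0.05), Hspb1 (-0.04), Bag3 (-0.07), Hspa8 (-0.02) and Hspa1b (-0.21). Dnajb1 and Dnaja1 stayed positive at 0.04 and 0.03. With LPS library 3 left out in its place the differences were 0.29 for Hsph1, 0.32 for Hspb1, 0.27 for Bag3, 0.32 for Hspa8, 0.34 for Hspa1b and 0.43 for Dnajb1.

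**Figure D4:**
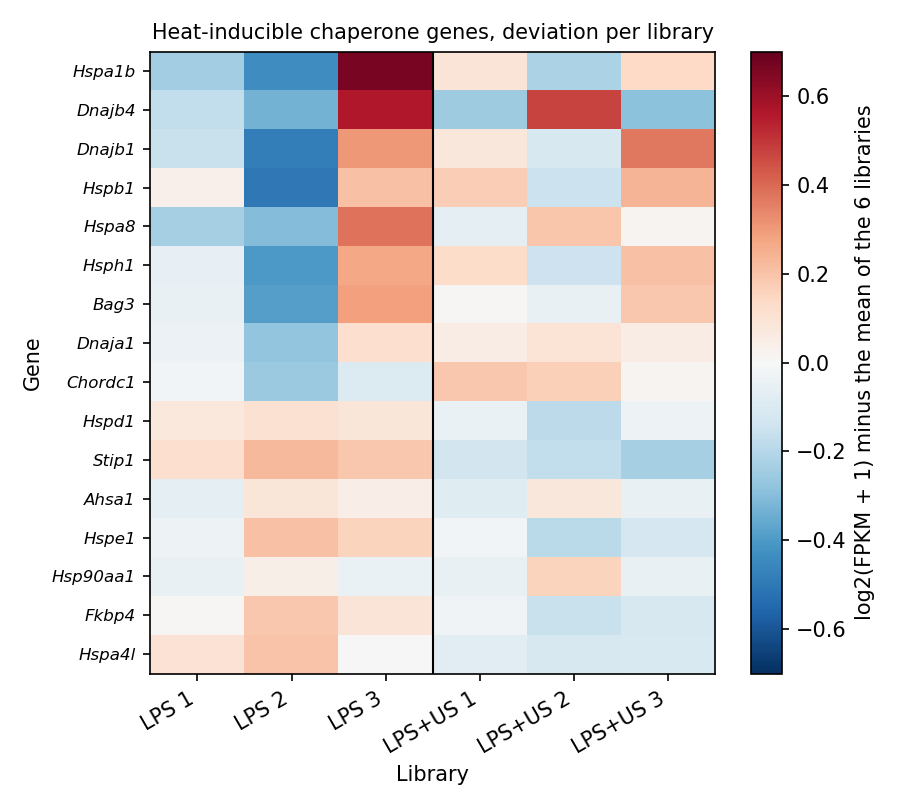
Deviation of log2(FPKM + 1) from the mean of the 6 libraries (colour, red above and blue below) for the 16 tested heat-inducible chaperone genes (rows) in each library (columns, LPS left of the line and LPS plus ultrasound, written LPS+US, right of it). The top 8 rows are blue in LPS library 2 and red in LPS library 3, whereas Hspd1, Stip1, Hspe1, Fkbp4 and Hspa4l are mostly red with LPS and blue with ultrasound.

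Genes carrying the strict heat shock element had values on both sides of no difference. The 5 members with a match had differences of -0.22 (Hspe1), -0.18 (Hspd1), 0.00 (Dnajb6), 0.12 (Hsph1) and 0.25 (Chordc1). Among all tested genes with a window, 41 held the strict motif, of which 12 were higher and 29 lower after ultrasound with a median of -0.05 and 0 past the adjusted threshold. Of the 41, 29.3% were higher, against 45.8% of the other 7900, which had a median of -0.02. Whether these shares differ was not tested. Stip1 and Bag1, whose p-values were the smallest of the members, had neither motif in their windows, nor did Dnajb1, the heat-inducible HSP40. That says only that these letters are not in those windows.

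Near-identical gene copies limit how exactly some of these levels can be read. In GENCODE M21 transcripts, 12 members had another gene at 95% identity or more over at least 200 bases, and for 8 of them the copies summed to over 10% of the member's own FPKM. Copies of Hspa8 summed to 497 FPKM, most of it in Gm15459 at 465 FPKM, so a large share of reads that match Hspa8 may sit under other names. With its copies, Hspa8 was at 750 ± 143 FPKM with LPS and 799 ± 28.6 FPKM with ultrasound. Dnaja1 with its copies was at 53.6 ± 8.21 and 57.4 ± 0.436 FPKM, and Hspe1 with its copy at 138 ± 13.6 and 118 ± 7.3 FPKM. For these 3 genes the direction of the group means was the same with and without the copies. The match of Tcp1 was to a stretch of Acat2, a gene of another function, so their levels were not summed here. Annotated exons also overlapped a gene on the opposite strand for 14 members, with Hspd1 and Hspe1 overlapping each other. For 6 members they overlapped a gene on the same strand. Whether reads were shared at these overlaps was not tested.

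The 45 members together made up 2881 to 3122 FPKM per library, 0.986% to 1.09% of the FPKM sum. In the LPS libraries the share was 1.07%, 1.01% and 1.09%, and in the ultrasound libraries 1.03%, 0.986% and 1.01%. LPS library 2 overlapped the ultrasound values.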

How the data were processed

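Poly(A) RNA of 6 RAW 264.7 libraries was sequenced as paired ends, per the labels' protocols. The authors deposited FPKM per mouse Ensembl gene. For the aligner, the quantifier and the mouse build, a name is not given in the sources used here. Rat muscle is described in the extraction text and the submitters' processing notes name the rat build mRatBN7.2, while all 55335 identifiers are mouse ones, so the values were read as mouse macrophage data. Columns were matched to libraries by the initial and number in their names.

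The filter kept 11270 genes that averaged 1 FPKM or more across the 6 libraries and removed 44065. Values were transformed as log2(FPKM + 1), and the groups were tested with limma 3.58.1 (R 4.3.3; variance trend, robust moderation, two-sided, Benjamini-Hochberg adjustment, threshold 0.05). Fold changes on this scale understate those of low genes. Deviations from the group mean correlated across genes at 0.18, 0.44 and 0.41 between same-numbered libraries. Between differently numbered ones the correlations were -0.40 to 0.06. Deviations within a group cancel, so these values depend on each other. The numbers in the titles may pair the libraries. That reading rests on the data. The fit reported left the libraries unpaired, and the block fit, which pairs them, is an alternative. Symbols were found for 55154 identifiers. Near-identical copies were found with BLAST 2.17.0 in GENCODE M21 transcripts.

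Members, lists and markers were chosen with earlier results of these data known. Values per library are given for the members listed as heat-inducible, both heat shock factors, any member past the threshold with or without the block, the 10 members with the smallest p and the highest member of each role, and group means from each other list for up to 2 tested genes with the smallest p, and for Cct6a. One gene that this rule names is not reported here. The alternatives changed the filter, the pseudocount, the scaling, the moderation, library weights or the block, or left out libraries.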

Additional observations from a re-analysis of the deposited data

How the results depend on the processing

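Over the alternative settings that could be run for them, 18 in all and 17 for Hsf1, Hspa1b and Hspb1, which a filter at 5 FPKM removes, 15 of 24 tested members described by library kept their direction and 9 changed sign. With 1 library left out, the difference moved over 1.5 times or turned for 14 of the 24. With library weights the number of members called was 1, Stip1, at a log2 difference of -0.30 with an adjusted p of 0.046, and it was 0 in every other setting tried. Genes called in all were 2 in the fit reported, 223 with library weights, 13 with the replicate block, 6 without both libraries numbered 2, 5 with equal FPKM sums (5 also over nuclear genes), 1 with a filter at 5 FPKM, and 2 to 8 when a library was left out. The paired fit with the replicate block changed no member's call. The members' median was -0.0386 without both libraries numbered 2 and -0.047 to 0.0139 with 1 library left out. Members with higher values were 21 in the fit reported, 16 with equal FPKM sums and 14 without LPS library 2.

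Signs turned as follows. With 1 library left out, Hspa1b ranged from -0.21 to 0.34, Hspa8 from -0.0243 to 0.319, Hsph1 from -0.0467 to 0.29, Hspb1 from -0.0362 to 0.318, Bag3 from -0.0661 to 0.268, Dnajb4 from -0.286 to 0.23, Hsf2 from -0.0944 to 0.0323, Hsp90aa1 from -0.0334 to 0.0716 and Hsp90ab1 from -0.0975 to 0.0279. Without both libraries numbered 2, values were -0.095 for Hspa1b, -0.0952 for Hspa8, -0.0161 for Bag3 and -0.00253 for Hsp90aa1. With library weights they were -0.0104 for Hspa8, -0.00707 for Hsp90aa1 and 0.00886 for Hsp90ab1. Hspa1b was -0.00433 with equal FPKM sums and -0.0141 with a pseudocount of 5, and Dnajb4 was 0.0092 with quantile normalization. The causes were not tested. Sequencing depth is unknown, so counting error for genes near 1 FPKM could not be given.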

Other observations

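Chaperones of the endoplasmic reticulum, which fold secreted and membrane proteins and rise in the unfolded protein response, were compared as a neighbouring system. Of 15 such genes, all tested, 9 had higher and 6 lower mean values after ultrasound. Their median difference was 0.04 on the log2(FPKM + 1) scale, and 0 passed the adjusted threshold of limma's test. Without LPS library 2, 11 were higher and 4 lower, with a median of 0.08. Without LPS library 1, 7 were higher and 8 lower, and without both libraries numbered 2, 13 and 2. Dnajc3, an inhibitor of translation control by PERK, was at 19.1 ± 0.816 FPKM with LPS and 22.9 ± 1.63 FPKM with ultrasound (SD, n = 3 each, adjusted p = 0.25). Dnajb11, a partner of the HSP70 protein BiP, was at 44.4 ± 0.323 and 48.5 ± 0.488 FPKM (adjusted p = 0.37). Groups did not overlap for these 2 genes (13.3% of the 15, against 23.2% of all genes tested) and overlapped for the others of this list.

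The other chaperone lists, whose genes serve several compartments, gave 0 calls as well. Of 10 further HSP70 and small heat shock protein genes 4 were tested, and ribosome-bound Hspa14 was at 28 ± 2.42 and 21.2 ± 2.78 FPKM (adjusted p = 0.22), whereas Hspa13 was at 10.7 ± 1.84 and 13.4 ± 1.96 FPKM (adjusted p = 0.38). Among 19 further J-domain and BAG genes, 18 were tested, 11 higher and 7 lower. Dnajb12, a membrane J-domain protein, was at 13.7 ± 0.847 and 17.5 ± 1.82 FPKM (adjusted p = 0.23), and Dnajc25 at 2.58 ± 0.788 and 3.6 ± 0.484 FPKM (adjusted p = 0.37). Without LPS library 2 the log2 difference went from 0.38 to 0.18 for Dnajc25 and from 0.30 to 0.17 for Hspa13.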
